A study of Mus musculus with 24 samples.

Results

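The circular RNAs described here were the 277 of 1717 in the authors' table (16.1%) that had a value above the table's floor of 0.01, which means at least 1 junction read, in each of 24 cardiac fibroblast libraries. They were chosen by these read values, so their abundance and their presence everywhere are a description and not a finding. The libraries came from male C57BL/6J mice operated on at 8 weeks of age. Hearts were taken 1, 4 or 8 weeks after transverse aortic constriction (TAC, which the labels call thoracic), in which a ligature around the aortic arch raises the pressure against which the heart pumps. Sham mice had the operation without the ligature. Sham libraries numbered 4, 5 and 4 at the 3 times, and TAC libraries 4, 4 and 3. All 6 groups shared strain, sex and protocol: fibroblasts were isolated on a Langendorff perfusion apparatus, with no sort or gate on cell type given in the sources used here, and rRNA-depleted, stranded total RNA was sequenced. The series concerns the part circular RNA plays in cardiac fibrosis.

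A circular RNA forms when the end of an exon is spliced back to the start of the same exon or of one that lies before it in the gene. The product has no free ends and is degraded slowly, and it shares its exons with the linear mRNA of its host gene, so only reads across the back-splice join identify it. Cardiac fibroblasts maintain the collagen matrix of the heart, and under pressure load they proliferate and deposit more of it.

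Each join is the only stretch of sequence that sets a circle apart from its host mRNA. The 50 bases around the join are given for the 6 members with the highest mean share, for 2 circles of Rftn1 that share a start, and for the members called in the comparison of TAC with sham whose exons are coding throughout. Lower case marks the last 25 bases of the circle's last exon and capitals mark the first 25 bases of its first exon, read 5′ to 3′ from the GENCODE transcript sequences of build GRCm38 (mm10).
Nfix exon 2: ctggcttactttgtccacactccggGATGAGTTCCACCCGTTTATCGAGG
Med13l exon 2: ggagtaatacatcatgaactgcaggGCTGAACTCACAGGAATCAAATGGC
Mmp15 exons 2 to 3: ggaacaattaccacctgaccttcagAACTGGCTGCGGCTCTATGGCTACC
Rnf169 exons 2 to 4: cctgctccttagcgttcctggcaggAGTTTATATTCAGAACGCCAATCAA
Lrch3 exons 2 to 6: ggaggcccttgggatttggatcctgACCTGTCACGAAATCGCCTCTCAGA
Adgre1 exons 11 to 12: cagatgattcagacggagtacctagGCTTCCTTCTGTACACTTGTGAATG
Rftn1 exons 5 to 6: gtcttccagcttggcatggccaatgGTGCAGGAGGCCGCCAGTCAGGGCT
Rftn1 exons 5 to 7: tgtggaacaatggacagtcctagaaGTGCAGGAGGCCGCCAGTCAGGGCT
Ttn exons 85 to 118: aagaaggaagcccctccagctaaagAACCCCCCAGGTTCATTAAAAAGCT
Ttn exons 84 to 118: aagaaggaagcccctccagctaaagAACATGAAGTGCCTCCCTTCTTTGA
Tlk1 exons 2 to 3: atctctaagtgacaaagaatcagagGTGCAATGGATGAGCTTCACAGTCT
Gigyf2 exons 4 to 8: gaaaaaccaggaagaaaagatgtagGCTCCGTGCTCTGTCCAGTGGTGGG
Tns3 exons 14 to 16: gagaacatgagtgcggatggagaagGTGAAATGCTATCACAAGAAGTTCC
Bub1b exons 17 to 19: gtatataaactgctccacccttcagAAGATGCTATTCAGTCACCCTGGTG
Svep1 exons 2 to 3: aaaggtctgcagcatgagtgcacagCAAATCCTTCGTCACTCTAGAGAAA
The pairs show how one host gives several members. The 2 Rftn1 circles begin with the same bases in capitals and end in different exons, and the 2 Ttn circles end with the same lower-case bases and begin in neighbouring exons. Of the 270 members whose ends both matched exon boundaries of one transcript, 78.9% ended their last exon with G, against 82.0% of 1387 such circles outside the set. The last 2 bases were AG in 52.2% against 56.7%, and the first base was G in 44.8% against 44.3%. These shares describe the exon sides of the splice sites. The intron sides were not analysed here.

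The members came from 247 host genes, of which 219 gave 1 member, 26 gave 2 and 2 gave 3. The hosts with 3 were Atxn1, which encodes the polyglutamine protein ataxin-1, and Glcci1. Each of these hosts used 1 start for its 3 circles: the Atxn1 circles ran from exon 2 to exons 3, 4 and 5, and the Glcci1 circles ran from exon 2 to exons 3, 5 and 6. The 3 Atxn1 members held 87.0% of the junction reads of their host's 6 circles, and the 3 Glcci1 members held 89.9% of the reads of 4 circles. Of all 247 hosts, 124 also had circles outside the set, and in those the members took a median of 77.2% of the host's junction reads (range 21.9% to 97.7%). All but 2 members had a protein-coding host.

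The exon make-up of the members is set beside that of the other circles as a description, without a test. Among the 270 matched members, 44.8% started at exon 2 of the transcript, against 34.2% of the other circles. None started at exon 1 or ended at a last exon. Members with 1 exon made up 8.15%, of 2 exons 33.3% and of 4 or more exons 33.3%, where the other circles gave 5.98%, 27.5% and 40.7%. The median spliced length was 410 bases against 421, and the median genomic span was 5673 bp against 6325 bp. Circles of 1 or 2 exons thus made up more of the members than of the other circles, while the spliced length was nearly the same.

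The introns beside the members were longer at the median. The intron before the first exon had a median of 14272 bp against 10288 bp for the other circles, and the intron after the last exon had 13076 bp against 9287 bp. Both introns exceeded 10 kb in 42.2% of members and 33.7% of the other circles. The Ttn circle of exons 84 to 118 had the shortest upstream intron of all members, at 148 bp, with 213 bp downstream. Exons were coding throughout in 74.8% of members against 83.7%, and coding together with untranslated in 62 members, against 14.9% of the other circles. The exons summed to a multiple of 3 bases in 31.5% of members and 36.3% of the other circles. A member shared a splice site with another circle of the table in 43.3% of cases, against 31.9%.

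Members at the ends of these ranges were the Atxn1 circle of exons 2 to 5, which spanned 221461 bp of chromosome 13, and a junction of 59 bp within Rn7sk on chromosome 9. Rn7sk encodes the 7SK RNA, a noncoding RNA that holds the elongation factor P-TEFb inactive. Neither end of the Rn7sk junction matched an exon boundary. In 5 other members only 1 end matched (Cdc14b, Peli2, Ccnb1ip1, Xpo7 and Rbm4), and in the Elk4 member both ends lay at exon boundaries of different transcripts. The Rbm4 junction and the 3 Glcci1 members had 2 candidate host genes each on their strand, so those host names are uncertain.

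The members held 67916 of 138868 junction reads (48.9%). The share was 45.4% to 53.4% by library, over depths of 3595 to 9146 junction reads, and its group means ran from 47.9% ± 2.23 (SD, n = 4, TAC at 1 week) to 50.2% ± 1.18 (n = 5, sham at 4 weeks). The median member had 4 to 12 reads in a library. Depth was not equal over the groups: the 4 TAC libraries of week 4 had 6846 to 9146 junction reads and the 5 sham libraries of that week 3618 to 6524, without overlap. Between 1 and 39 members of a library stood at a single read, with the lowest number in the deepest library.

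**Figure D1:**
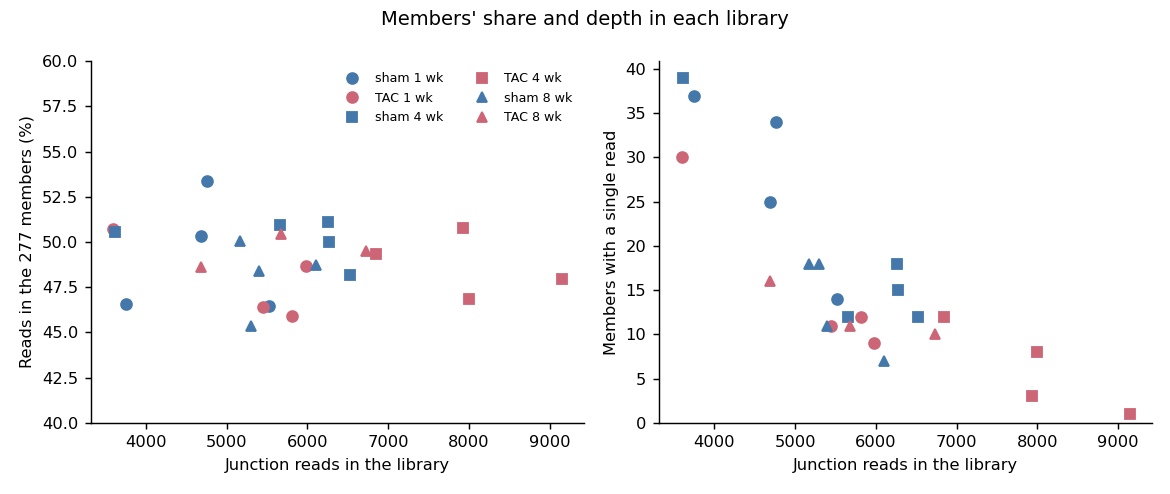
Each point is a library, plotted by its junction reads (x axis) against the percentage of those reads in the 277 members (left; the axis runs from 40% to 60%) and against the number of members with a single read (right). The share stays between 45.4% and 53.4% at every depth, while the number of members at a single read runs from 39 in a shallow library to 1 in the deepest.

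The threshold of the rule was low, and 142 members had a single read in their lowest library. At least 2 reads in every library were present for 135 members, at least 5 for 44 and at least 10 for 10. The members with the lowest means were the circles of Osbpl9 exons 6 to 9 (mean 1.92 reads, range 1 to 6), Fgfr1 exons 4 to 5 (2.04 reads, 1 to 5) and Rin2 exons 8 to 9 (2.29 reads, 1 to 5). Just outside, 137 circles had reads in 23 of the 24 libraries, with a median of 3.92 reads, and in 48 of them the empty library was one of the 4 shallowest. The highest of these was the circle of Mettl9 exons 2 to 4, with a mean of 20.7 reads, up to 53 reads and none in 1-week sham replicate 1, and the next was Crebrf exons 3 to 4 with 11.3. Membership thus left out 57 circles with a mean of at least 5 reads, while 62 members had a lower mean. A circle that vanished from even 1 library could not be a member, so the set holds no change that ended at 0 reads.

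Ranks over all 1717 circles were steady only at the top. The circle of Nfix exon 2 (chromosome 8, 84771784 to 84772315), whose host is a nuclear factor I transcription factor, ranked first in all 24 libraries, with a mean share of 3.12% (range 1.69% to 5.00%). Med13l exon 2 (chromosome 5, 118593333 to 118593570), from a gene for a subunit of the Mediator kinase module, ranked between 2 and 8.5 with 1.08% (range 0.671% to 1.72%). No other member stayed in the top 20 of every library, 5 members stayed in the top 50 and 11 in the top 100.

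The next places were held by circles whose ranks moved far between libraries. Mmp15 exons 2 to 3, from a membrane-bound matrix metalloproteinase gene, had a mean share of 0.679% and ranks of 2 to 50.5. Rnf169 exons 2 to 4, from a ubiquitin ligase gene of the DNA damage response, had 0.635% and ranks of 3 to 28.5. Lrch3 exons 2 to 6 had 0.606% and ranks of 2 to 69.5.

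Adgre1 exons 11 to 12, from the gene of the macrophage marker F4/80, had 0.582% and ranks of 3 to 107. Elf2 exons 2 to 4, from an ETS transcription factor gene, had a lower share of 0.502% and a narrower span of ranks, 4 to 35.5. Ttn exons 85 to 118, from the gene of the sarcomere protein titin, had 0.442% and ranks of 2 to 359. Over all members the median difference between the best and the worst rank was 877 places. The 10 highest members took a mean of 8.82% of a library's junction reads and the 50 highest took 21.9%. The 85 members with a mean of at least 10 reads held 28.8% of the reads and the other 192 members 20.1%.

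**Figure D2:**
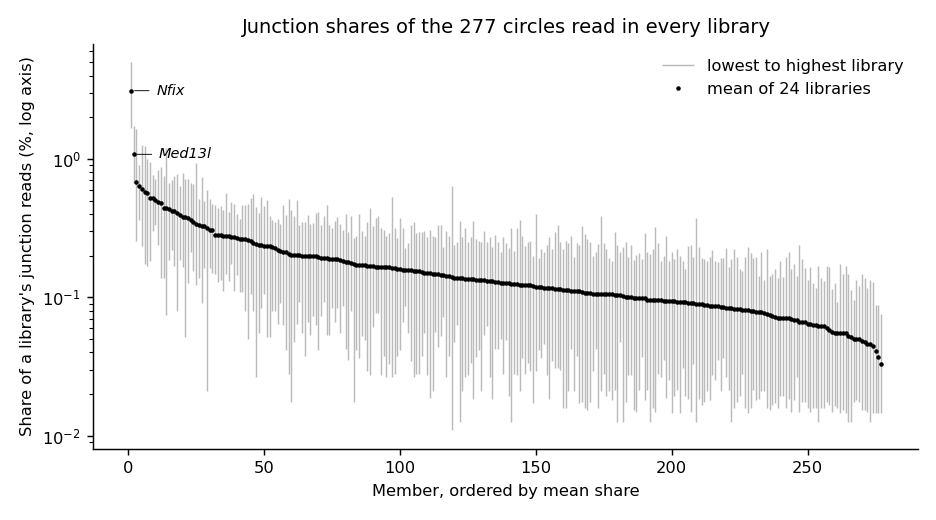
Share of a library's junction reads (log axis, percent) for each of the 277 members, ordered by mean share: points are means over 24 libraries and grey lines run from the lowest to the highest library. Nfix (mean 3.12%) and Med13l (1.08%) stand above a curve that falls slowly, and the grey lines of most members overlap those of many neighbours.

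The spread of a member between libraries of the same group was compared with the spread that counting alone gives at its depth. The median coefficient of variation within groups was 45.5%, beside a median of 37.6% from counting alone. The median ratio of observed to counting variance was 1.47 (1.24 for the other circles). The ratio was under 1 for 57 members, above 2 for 69 and above 4 for 6. For members with a mean of at least 20 reads the median coefficient of variation was 33.2% against 19.96% from counting, and for those under 5 reads it was 55.5% against 52.0%. The variance was taken within the 6 groups and pooled, so differences between TAC and sham are no part of it.

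Among the 85 members with a mean of at least 10 reads, the largest ratios were 10.5 for Nfix, 8.04 for Mmp15, 7.11 for Adgre1 exons 11 to 12, 6.80 for Lrch3 and 5.74 for Ttn exons 85 to 118. The Mmp15 circle measured 50.8 ± 36.5 normalized reads in 1-week sham (SD, n = 4; range 19.5 to 99.2) and 24.9 ± 8.58 in 1-week TAC (n = 4; 13.98 to 32.3). The 2 groups overlapped, and the 1-week sham libraries alone spanned a wider range than any other group for this circle.

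The lowest ratios among these deeper members were all under 1: Atxn1 exons 2 to 4 (0.609), Rabgef1 exons 2 to 3 (0.641), Tent4a exons 2 to 4 (0.926), Picalm exons 14 to 20 (0.956) and Eps15l1 exons 15 to 21 (0.983). The Rabgef1 circle, from a gene for an exchange factor of the endosomal GTPase Rab5, had group means between 13.6 ± 5.41 (SD, n = 4, TAC at 1 week) and 16.8 ± 4.04 (n = 3, TAC at 8 weeks). Nfix, first in every library, also had the highest ratio, with a coefficient of variation of 24.8% against 7.64% from counting. The ratio grows with depth: Mmp15 had a wider spread, at 46.2% against 16.3%, and a lower ratio.

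**Figure D3:**
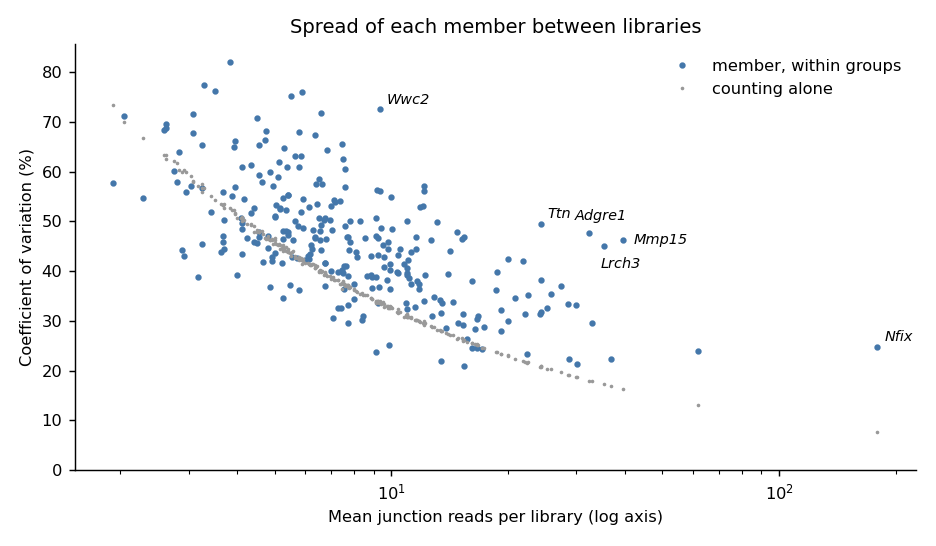
Coefficient of variation within groups (percent) against mean junction reads per library (log axis): blue points are the 277 members, grey points the value that counting alone gives. Nfix, Mmp15, Adgre1, Lrch3, Ttn and Wwc2, the 6 members with a ratio of observed to counting variance above 4, are named.

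By library, the members' median absolute deviation from their group mean was highest in 1-week sham replicate 1, at 0.61 on the log2 scale, where 55 members lay over 1 log2 unit from their group mean. It was lowest in 4-week TAC replicate 4, the deepest library, at 0.25, with 7 such members. The Lrch3 circle, from a gene for a leucine-rich repeat protein of the cytoskeleton, ranged from 13.7 to 40.6 normalized reads in 1-week sham and from 18.5 to 72.0 in 1-week TAC. The Adgre1 circle of exons 11 to 12 ranged from 19.6 to 74.1 and from 17.5 to 49.2 in the same groups. For both members the TAC and sham ranges overlapped at each of the 3 times.

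TAC and sham were compared at each time with limma over all 1717 circles, with calls at a Benjamini-Hochberg adjusted p under 0.05. At 1 week 8 members were called, 5 higher and 3 lower in TAC, which is 2.89% of the members beside 1.46% of all circles tested. At 4 weeks 2 members were called, both lower, which is 0.722% beside 0.116%. At 8 weeks limma called 0 members and 0.0% of all circles, with 9 members at an unadjusted p under 0.05 and 0 calls by limma-voom. Averaged over the times 5 members were called, 3 lower and 2 higher, which is 1.81% beside 0.641%.

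The members are deeper than the rest, and their errors were smaller: the median standard error (SE) of the log2 difference was 0.54, 0.51 and 0.58 at 1, 4 and 8 weeks, beside 0.79, 0.75 and 0.86 over all circles. The share called therefore does not compare members with other circles at equal precision. At an unadjusted p under 0.05 there were 39 members at 1 week (14.1% beside 11.7% of all circles), 28 at 4 weeks (10.1% beside 7.98%), 9 at 8 weeks (3.25% beside 6.06%) and 32 on average (11.6% beside 9.9%). All TAC libraries lay above or all lay below all sham libraries of their time for 26 members at 1 week (9.39% beside 5.24%), and for 14 members at each of 4 weeks (5.05% beside 3.55%) and 8 weeks (5.05% beside 6.12%).

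The median log2 difference of the members was -0.01 at 1 week, 0.04 at 4 weeks and 0.09 at 8 weeks, beside 0.04, 0.12 and 0.03 over all circles. Of the 277 members, 138, 149 and 165 had a positive difference at the 3 times. A 95% interval that lay wholly within 1 log2 unit of 0 was reached by 26, 47 and 22 members, and by 190 on average, so for most members a 2-fold difference at a single time lay within the interval. No member and 0.0% of all circles were called for a difference of the TAC effect between any 2 times by limma (21, 21 and 13 members at an unadjusted p under 0.05 for weeks 4 against 1, 8 against 1 and 8 against 4), and limma-voom called no member either.

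**Figure D4:**
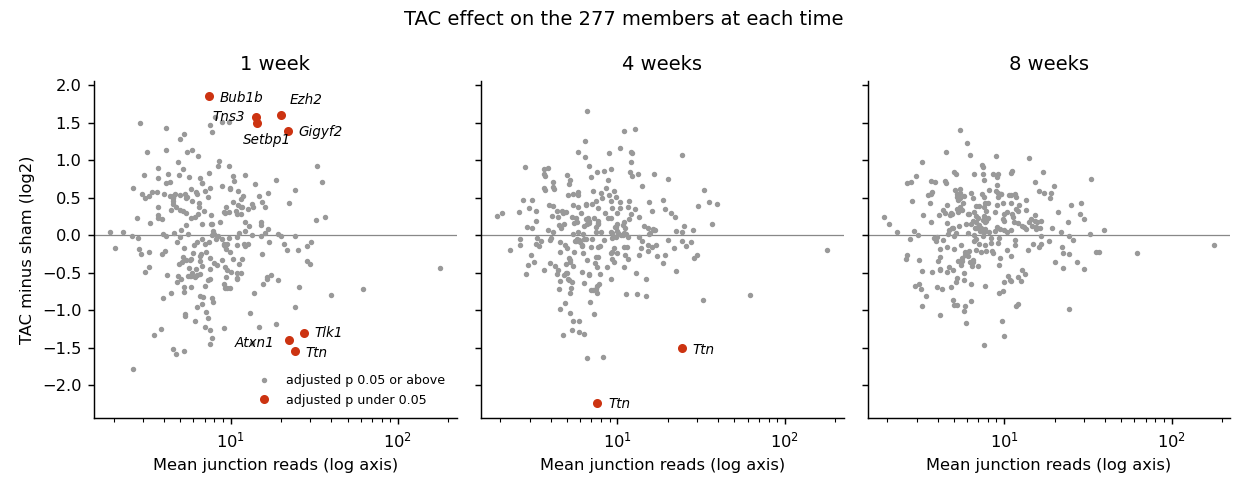
Log2 difference of TAC from sham for each of the 277 members against its mean junction reads (log axis), at 1, 4 and 8 weeks. Red points, named by host, passed an adjusted p of 0.05 in limma over all 1717 circles: 8 at 1 week, 2 at 4 weeks and none at 8 weeks.

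The errors need one qualification. The fit shared its spread across circles so strongly (608 prior against 18 residual degrees of freedom) that each SE follows from the member's mean level. The member's own SD was a median of 0.87 times the shared one, under 0.8 times in 99 members, with Nfix the highest at 1.64. Called members above the shared SD were Tlk1 (1.27 times), Ttn exons 85 to 118 (1.18), Ezh2 (1.16) and Atxn1 exons 2 to 3 (1.16). Nfkb1 (1.15), Tns3 (1.13), Med13l (1.01) and Setbp1 (1.01) were also above it. Gigyf2 (0.84), Bub1b (0.92), Ttn exons 84 to 118 (0.96) and Svep1 (0.97) were below it. For the members above it, the shared SE is smaller than their own spread gives. With each circle's own spread instead, 5 members were called at 1 week, 0 at 4 weeks, 0 at 8 weeks and 3 on average. Over all circles the counts were 11, 0, 0 and 4. Of the calls above, Gigyf2 at 1 week and both Ttn circles on average were also called in that way. Exact permutation tests on single members are given below and use neither form of spread. They were run on members picked largely on the same values, so they are no independent check of the calls. With 4 against 4 libraries the tests cannot go below 0.0286, with 5 against 4 below 0.00794 and with 4 against 3 below 0.0286, two-sided and unadjusted. At 1 week, groups that do not overlap reach that lowest value by this fact alone.

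The called members with a higher level in TAC at 1 week came from genes of chromatin, translation, adhesion and mitosis. Ezh2 exons 2 to 3 (chromosome 6, 47576536 to 47577667), from the gene of the histone H3 lysine 27 methyltransferase of Polycomb repressive complex 2, had 7.54, 12.5, 19.5 and 10.3 normalized reads in sham and 23.1, 43.1, 34.9 and 52.5 in TAC. The groups did not overlap, and the log2 difference was 1.60 ± 0.39 (SE; limma adjusted p = 0.0113; exact permutation p = 0.0286). Without TAC replicate 2 or replicate 4 the call was lost (limma adjusted p up to 0.0629). A second Ezh2 member, which starts at 47576563 and has the same end, had a difference of 1.35 ± 0.61 at 1 week and was not called. Averaged over the times the called circle stood at 0.67 ± 0.23 and was not called.

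Gigyf2 exons 4 to 8 (chromosome 1, 87364104 to 87380008), from a gene whose product represses translation with the cap-binding protein 4EHP, had 8.79, 7.48, 15.03 and 10.3 normalized reads in sham and 24.6, 28.8, 22.0 and 35.0 in TAC at 1 week. The groups did not overlap. The log2 difference was 1.39 ± 0.36 (SE; limma adjusted p = 0.0241; exact permutation p = 0.0286), and the call was lost without sham replicate 2, TAC replicate 2 or TAC replicate 4 (adjusted p up to 0.0982). It stood at 0.24 ± 0.35 at 4 weeks and -0.15 ± 0.39 at 8 weeks.

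Tns3 exons 14 to 16 (chromosome 11, 8518199 to 8519570), from the gene of the focal adhesion protein tensin 3, had 20.1, 4.99, 4.51 and 6.20 normalized reads in sham and 30.8, 25.9, 22.0 and 15.6 in TAC. Sham replicate 1 stood above the lowest TAC library, so the groups overlapped. The log2 difference of 1.57 ± 0.43 (SE; limma adjusted p = 0.0294; exact permutation p = 0.0571) was lost as a call when sham replicate 2, 3 or 4 or TAC replicate 1, 2 or 3 was left out, with an adjusted p up to 0.141. It stood at -0.08 ± 0.41 at 4 weeks.

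Setbp1 exon 2 (chromosome 18, 79086551 to 79087180), from a gene for a protein that binds the SET oncoprotein, had 7.54, 8.73, 1.503 and 12.4 normalized reads in sham and 21.5, 16.3, 16.0 and 19.5 in TAC. Every TAC library lay above every sham library, and sham replicate 3 was low with a single read. The log2 difference of 1.497 ± 0.43 (SE; limma adjusted p = 0.0420; exact permutation p = 0.0286) fell to 0.92 without that library, with an adjusted p of 0.351. Leaving out sham replicate 2 or any 1 TAC replicate also ended the call.

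Bub1b exons 17 to 19 (chromosome 2, 118631759 to 118635277), from the gene of the spindle checkpoint kinase BubR1, had 5.02, 4.99, 3.01 and 4.14 normalized reads in sham and 35.4, 19.2, 9.98 and 10.7 in TAC. TAC replicates 1 and 2 were well above the other pair, and all 4 were above sham. The log2 difference of 1.85 ± 0.54 (SE; limma adjusted p = 0.0459; exact permutation p = 0.0286) did not survive the loss of any one of the 8 libraries of that week (adjusted p up to 0.207). At 8 weeks the 3 TAC libraries, at 8.17 to 10.3, again lay above the sham libraries, at 3.30 to 6.38, without a call (0.82 ± 0.58). Bub1b was the only host of the cell cycle list among the members, and 4 of the 69 listed genes had circles in the table. Those 6 circles, of which 3 came from Bub1b, summed to 5.17 to 15.1 normalized reads in 1-week sham and 22.0 to 44.6 in 1-week TAC. At 4 weeks they summed to 7.37 to 17.8 in sham and 2.57 to 12.5 in TAC. The sums include the called circle, which made 18.8 of a mean of 31.1 in 1-week TAC and 4.29 of 8.81 in 1-week sham. They are therefore no separate evidence beside the call. The part of dividing cells in the Bub1b value was not tested.

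The 3 members called lower at 1 week were Ttn exons 85 to 118, Tlk1 exons 2 to 3 and Atxn1 exons 2 to 3. Tlk1 (chromosome 2, 70770004 to 70786995), from the gene of a kinase of the chromatin assembly factor ASF1, had 46.5, 44.9, 36.1 and 39.3 normalized reads in sham and 12.3, 20.1, 16.0 and 18.5 in TAC. Both groups were tight and far apart, with a log2 difference of -1.31 ± 0.34 (SE; limma adjusted p = 0.0239; exact permutation p = 0.0286). The call was lost without sham replicate 2, TAC replicate 1 or TAC replicate 3 (adjusted p up to 0.0803). At 4 weeks the 5 sham libraries of Tlk1 ranged from 7.86 to 45.1, on both sides of the TAC range of 16.1 to 23.1, with a difference of -0.09 ± 0.32.

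Atxn1 exons 2 to 3 (chromosome 13, 45852328 to 45956575), which lies in untranslated exons, had 42.7, 26.2, 15.03 and 17.6 normalized reads in sham and 9.23, 21.1, 8.98 and 2.92 in TAC at 1 week. TAC replicate 2 stood within the sham range, and the difference was -1.39 ± 0.37 (SE; limma adjusted p = 0.0241; exact permutation p = 0.0857). Without TAC replicate 4 the adjusted p was 0.311, and leaving out sham replicate 1, sham replicate 2 or TAC replicate 3 ended the call too. Its neighbour of exons 2 to 4, with 17.99 ± 3.89 in sham and 6.71 ± 2.73 in TAC (SD, n = 4 each), stood at -1.44 ± 0.43 (limma adjusted p = 0.0535), and the third Atxn1 member at -0.33 ± 0.57.

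The 2 Ttn circles were the members called at 4 weeks. Exons 85 to 118 (chromosome 2, 76857904 to 76881839) had 29.9, 23.6, 51.2, 31.6 and 20.3 normalized reads in sham and 12.7, 13.2, 4.36 and 14.1 in TAC. Exons 84 to 118 (chromosome 2, 76857904 to 76884197) had 15.9, 12.6, 19.1, 9.16 and 6.45 in sham and 3.38, 1.47, 0.726 and 4.50 in TAC. For both circles every TAC library lay below every sham library of that week. The log2 differences were -1.51 ± 0.34 and -2.23 ± 0.53 (SE; limma adjusted p = 0.0232 and 0.0274; exact permutation p = 0.0159 for each). Each call needed sham replicates 1, 3 and 4 and TAC replicate 3, and that of the longer circle also TAC replicate 2 (adjusted p up to 0.540 and 0.484 when one was left out). The week 4 TAC libraries were also the deeper ones, as given above, and the part of depth in these differences was not tested.

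At 1 week Ttn exons 85 to 118 had 17.6, 33.7, 58.6 and 15.5 in sham and 12.3, 6.71, 9.98 and 7.78 in TAC, a difference of -1.55 ± 0.36 (SE; limma adjusted p = 0.00750; exact permutation p = 0.0286) that was lost without sham replicate 2 or 3 (adjusted p up to 0.0960). At 8 weeks it had 68.1, 36.3, 26.9 and 48.8 in sham and 23.9, 23.5 and 17.1 in TAC, again without overlap, and was not called (-0.98 ± 0.39). Averaged over the times it fell by 1.34 on the log2 scale (SE 0.21; limma adjusted p = 6.42e-07; exact permutation p within times 7.45e-05), lower than the sham mean of its time in 11 of 11 TAC libraries. The longer circle fell by 1.71 on average (SE 0.33; limma adjusted p = 0.000204), also in 11 of 11. Both average calls were kept when any single library was left out.

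Titin is a protein of heart and skeletal muscle cells, and the libraries are labelled fibroblast. In RNA from many cells, fewer cells of a type and less RNA per cell cannot be told apart. Of 57 cardiomyocyte genes listed, 12 had a circle in the table (19 circles) and 3 had members: Ttn, Asph and Cacna1c. The 19 circles summed to 64.1 to 188 normalized reads in sham and 39.3 to 56.9 in TAC at 1 week, 52.5 to 162 and 39.9 to 65.5 at 4 weeks, and 86.6 to 157 and 71.8 to 91.9 at 8 weeks. These sums include the Ttn circles. The 16 listed circles of other hosts summed to 36.4 to 102 in sham and 30.7 to 42.9 in TAC at 1 week, 23.95 to 86.8 and 27.0 to 45.0 at 4 weeks, and 47.3 to 62.8 and 44.3 to 60.3 at 8 weeks. Their TAC means were below their sham means at each time, and the ranges overlapped at each time. The members among them, Cacna1c exons 2 to 3, from the gene of the L-type calcium channel, and Asph exons 16 to 20, stood at 0.53 ± 0.35 and 0.06 ± 0.31 on average, and neither was called. Listed genes such as Myh6, Tnnt2 and Actn2 had no row. The part of cardiomyocyte RNA in the Ttn results was not tested.

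In the fit above, the other 3 members, Med13l, Nfkb1 and Svep1, were called only on the average of the times. Under other settings Med13l was also called at 4 weeks (limma-voom, week 4 alone) and at 1 week (replicate block). Svep1 was also called at 1 week with a filter of a mean of at least 5 reads. Med13l exon 2 had 103, 72.3, 45.1 and 87.9 normalized reads in sham and 52.3, 43.1, 46.9 and 37.9 in TAC at 1 week, and 90.6, 83.3, 60.7, 97.7 and 94.9 against 59.2, 40.3, 40.7 and 56.5 at 4 weeks. At 8 weeks it had 43.6, 51.7, 66.4 and 71.1 in sham and 39.5, 43.9 and 64.3 in TAC. The groups were apart at 4 weeks, overlapped at 1 week through the lowest sham library and overlapped broadly at 8 weeks. The average log2 difference was -0.58 ± 0.14 (SE; limma adjusted p = 0.00822; exact permutation p within times 0.000777), and 10 of 11 TAC libraries were below the sham mean of their time.

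Nfkb1 exons 2 to 6 (chromosome 3, 135655500 to 135669339), from the gene of the p105 precursor of NF-kappa-B, had 10.0, 36.2, 33.1 and 23.8 normalized reads in sham and 35.4, 57.5, 41.9 and 45.7 in TAC at 1 week. At 4 weeks it had 15.3 to 39.0 in sham and 27.1 to 46.5 in TAC, and at 8 weeks 17.3 to 35.0 and 32.6 to 47.9. The groups overlapped at every time, yet 11 of 11 TAC libraries stood above the sham mean of their time. The average difference was 0.76 ± 0.18 (SE; limma adjusted p = 0.00822; exact permutation p within times 0.000528).

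Svep1 exons 2 to 3 (chromosome 4, 58175931 to 58179707), from the gene of a large extracellular matrix protein that also served as a fibroblast marker here, had 6.28, 3.74, 3.01 and 5.17 normalized reads in sham and 16.9, 15.3, 16.0 and 7.78 in TAC at 1 week. At 4 weeks the sham libraries had 1.57 to 8.29 and the TAC libraries 9.54 to 13.8, and at 8 weeks 1.06 to 9.62 and 6.86 to 15.6. The groups were apart at 1 and 4 weeks and overlapped at 8 weeks. The average difference was 1.22 ± 0.30 (SE; limma adjusted p = 0.0124; exact permutation p within times 6.80e-05), with 11 of 11 TAC libraries above the sham mean of their time. Without TAC replicate 1 of week 8 none of these 3 circles was called (limma adjusted p of 0.0612, 0.0612 and 0.0931), and Svep1 was lost without sham replicate 1 of that week too.

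**Figure D5:**
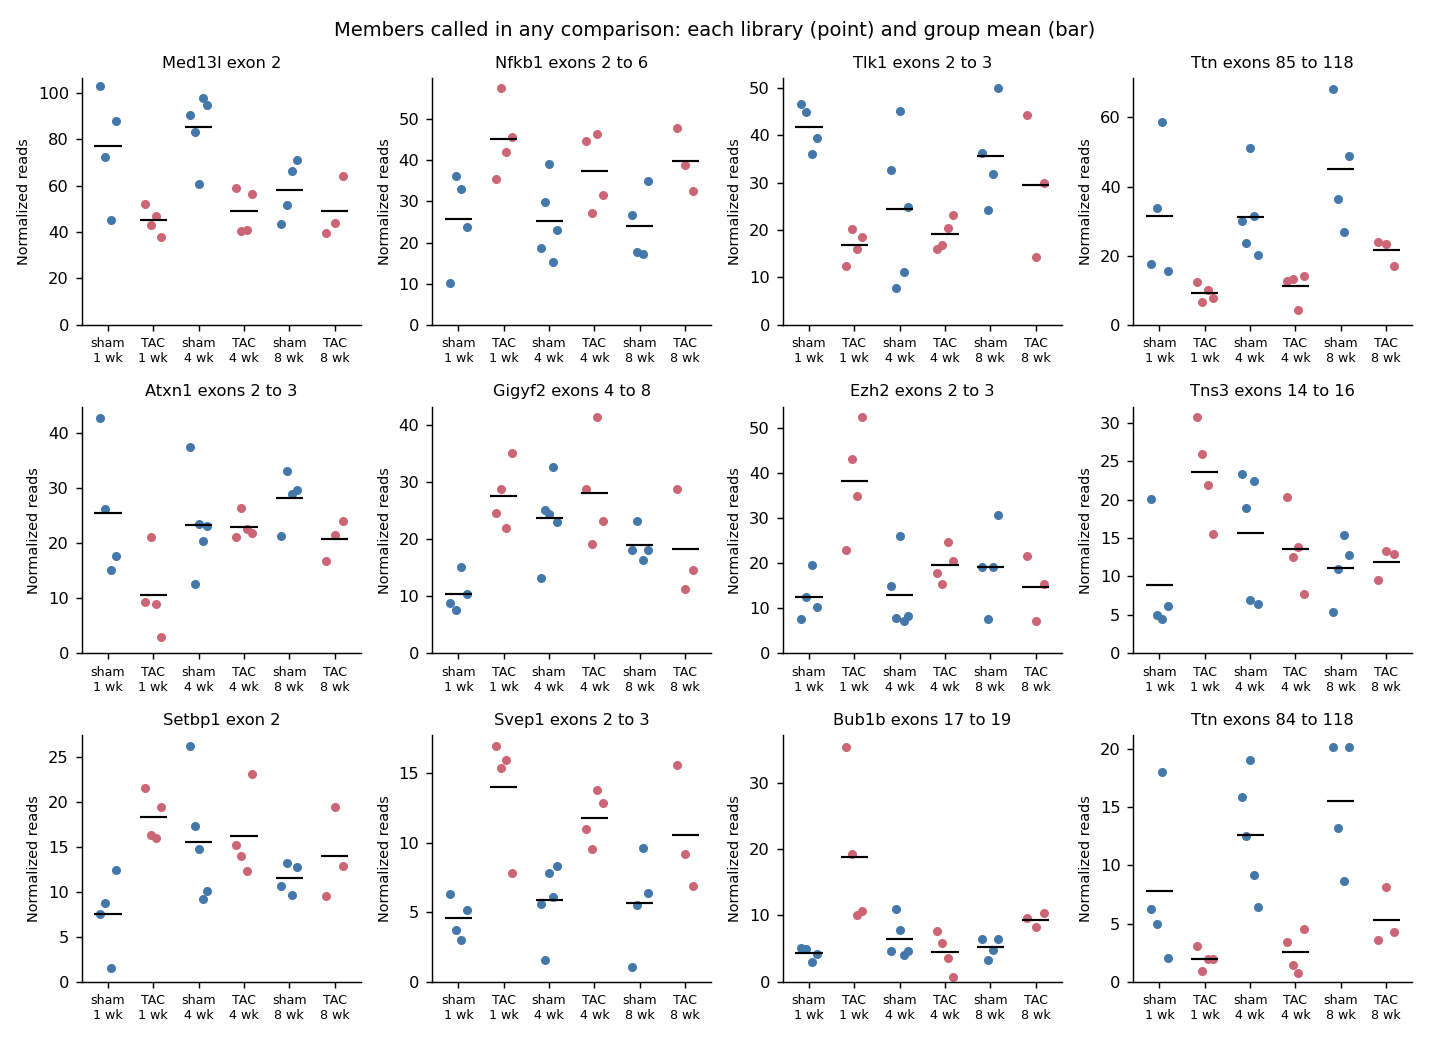
Normalized junction reads of the 12 members called at any time or on average: blue points are sham libraries, red points TAC libraries, bars the group means, with 3 to 5 libraries in each of 6 groups. The Ttn panels show TAC means below sham means at each time, while Ezh2, Gigyf2, Bub1b and Tlk1 are apart at 1 week and overlap at 4 weeks.

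Next to these calls stood members that did not pass. At 1 week Zfp609 exon 2, from a zinc finger gene, had 5.02, 2.49, 1.503 and 5.17 normalized reads in sham and 10.8, 9.58, 11.0 and 8.76 in TAC, apart by 1.502 ± 0.49 (limma adjusted p = 0.0937). Ehmt1 exons 16 to 18, from a histone H3 lysine 9 methyltransferase gene, had 27.6, 19.95, 16.5 and 14.5 in sham and 10.8, 6.71, 5.99 and 8.76 in TAC, also without overlap (-1.23 ± 0.41; limma adjusted p = 0.107). Ogdh exons 3 to 4, from the gene of a tricarboxylic acid cycle enzyme, stood at -1.18 ± 0.38 (limma adjusted p = 0.0929) with overlapping groups. Zfp609 and Ehmt1, with Atxn1 exons 2 to 4, Lrrc58 and Gigyf2, were the 5 members called at 1 week with each circle's own spread.

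At 4 weeks the smallest p above sham belonged to Usp3 exons 2 to 8, from the gene of a histone deubiquitinase. It had 4.67, 4.71, 9.55, 5.09 and 6.45 normalized reads in sham and 11.8, 11.7, 22.5 and 23.1 in TAC, with no overlap and a difference of 1.41 ± 0.44 (limma adjusted p = 0.223). At 1 and 8 weeks its groups overlapped. Phf21a exons 2 to 6, Tcf25 exons 3 to 4 and Esco1 exons 5 to 7 followed at 1.07 ± 0.34, 1.39 ± 0.46 and 1.65 ± 0.55 (limma adjusted p = 0.281 for each), with overlapping groups in all 3. On the lower side Rn7sk stood at -1.64 ± 0.53.

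At 8 weeks the members nearest to a call had an adjusted p of 0.753 by limma. Arhgap10 exons 14 to 18 had 11.7, 13.2, 9.62 and 14.8 normalized reads in sham and 15.6, 2.04 and 2.57 in TAC, with TAC replicate 1 above all sham libraries (-1.34 ± 0.54).

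Over the 3 times the member closest to a call was Asxl1 exons 2 to 4, from a Polycomb-associated gene, at -1.17 ± 0.34 (limma adjusted p = 0.0718). It had 6.28, 9.98, 12.02 and 10.3 normalized reads in sham and 3.08, 1.92, 3.99 and 2.92 in TAC at 1 week, and 5.09 to 6.28 against 1.93 to 4.23 at 4 weeks. Its groups were apart at both times and overlapped at 8 weeks, and 10 of 11 TAC libraries were below the sham mean of their time. With its own spread the Asxl1 circle was called on average (limma adjusted p = 0.0166). Dcbld2 exons 2 to 3 stood above sham at 0.79 ± 0.25 (limma adjusted p = 0.143), higher in 9 of 11 TAC libraries. Nfix, the most abundant member, stood at -0.25 ± 0.09 (limma adjusted p = 0.172). This SE is the shared one, and the circle's own SD was 1.64 times the shared SD. Nfix was called lower by limma-voom at 1 week and on average, and with a replicate block at 1 week.

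Host genes were also grouped by function. Chromatin and transcription regulators gave 19 members of 17 hosts. At 1 week 11 of them were above and 8 below sham, and their median was 0.58 beside -0.01 over all members and 0.04 over all circles tested. Of the 19, 2 were called higher (Ezh2 and Setbp1), to be read beside 2.89% of members and 1.46% of all circles. Kat6b exon 2, from a histone acetyltransferase gene, stood at 1.58 ± 0.53 and Eed exons 9 to 11, from the gene of another Polycomb repressive complex 2 subunit, at 1.46 ± 0.56. On the other side Asxl1 exons 2 to 4 stood at -1.55 ± 0.58 and Ehmt1 exons 16 to 18 at -1.23 ± 0.41. None of these 4 was called. The median of the list was 0.18 at 4 weeks and -0.11 at 8 weeks.

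RNA-binding and splicing factors gave 13 members of 11 hosts, with a median of 0.22 at 1 week and 1 call, Gigyf2. Kinases and phosphatases gave 16 members with a median of -0.07 and 1 call, Tlk1. The cytoskeleton and adhesion list gave 10 members with a median of -0.17 and 1 call, Tns3. The calls in these lists, all at 1 week, are to be read beside the 1.46% of all circles called then. Ubiquitin and SUMO pathway hosts gave 14 members, small GTPase regulators 15, membrane trafficking 6 and the TGF-beta, BMP, Wnt and Hippo list 6. No member of these 4 lists was called at any time or on average, and their medians at 1 week were 0.11, 0.15, 0.08 and -0.45. With TMM scaling (trimmed mean of M values) the median over all members at 1 week was 0.09 in place of -0.01, so medians this close to 0 have no firm sign. The last list includes Smad4 exons 5 to 8, Smad1 exon 2, Amotl1, Wwc2, Lrp6 and Ltbp1.

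Sequence-specific transcription factors gave 9 members, with a median of 0.00 on average and 1 call on average (Nfkb1), beside 0.641% of all circles. Hosts widely reported for circular RNA, Ttn among them, gave 26 members. Of these 26, 19, 18 and 17 were below sham at 1, 4 and 8 weeks, with medians of -0.39, -0.27 and -0.24. Over all 277 members 139, 128 and 112 were below sham, with medians of -0.01, 0.04 and 0.09. The calls among the 26, to be read beside the 1.46%, 0.116% and 0.641% of all circles called at 1 week, at 4 weeks and on average, were the 2 Ttn circles, Med13l and Atxn1 exons 2 to 3, all lower. Hipk3 exon 2 and Cdyl exon 2, members of that list, were not called at any time.

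Marker genes of other cell types were among the hosts. The macrophage and leukocyte list, with 12 of its 64 genes in the table, gave 9 members of 7 hosts, 8 of which were below sham on average, with a median of -0.22 beside 0.05 over all members, and none was called. At 1 week 6 of the 9 were above sham (median 0.20), at 4 weeks 2 (-0.34) and at 8 weeks 4 (-0.12). Ikzf1 exons 2 to 3, from a lymphoid and myeloid transcription factor gene, stood at -1.63 ± 0.48 at 4 weeks (limma adjusted p = 0.146), and the 2 Adgre1 members at -0.86 ± 0.30 and -0.81 ± 0.41. The list's members summed to 60.3 to 117 normalized reads in 4-week TAC and 90.2 to 146 in 4-week sham, which overlapped. The part of these cells in the Adgre1 and Ikzf1 values was not tested. Endothelial markers gave Pecam1 exons 8 to 13 and Fli1 exons 2 to 5, and mural markers gave no member. Resting fibroblast markers gave Svep1, Fndc3b and Abca9, from 9 of 34 listed genes with any circle in the table. On average 2 of these 3 members were above sham and 1 below, with a median of 0.08 and a range of -0.29 to 1.22. Their medians were 0.54, -0.08 and 0.53 at 1, 4 and 8 weeks, and only Svep1 was called. Pdgfra and Tcf21, which define the cell type, had no row, so the table cannot check the label by them.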

How the data were processed

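Back-splice junctions of 24 libraries were taken from the authors' table. What the authors deposited is a normalized signal: after removal of the 0.01 offset, every value equalled a whole number of junction reads times a factor that was constant within a library (100% of 41208 values, within 0.05 of a read). A single read was worth 0.642 to 1.57. FastQC, Trimmomatic, STAR and build mm10 appear in the submitters' processing notes without versions. The authors' name for these counts includes DCC, a caller of circular RNA, without a version. The origin of the factors is not stated in the sources used here. Normalized reads below are the deposited values without the offset.

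Junctions were matched by strand to exon boundaries of GENCODE M21, on the same build. TAC was compared with sham by limma 3.58.1 (R 4.3.3, intensity trend) on log2(normalized reads + 0.5), a scale that understates changes of scarce circles, with all 24 libraries, 6 groups and no covariate. Adjustment ran over all 1717 circles, with no filter. The fit was also run on simulated data in which all circles had the same extra spread. That run cannot check the shared errors of circles whose own spread differs. Exact permutation tests were two-sided on differences of means, within 1 time or, for the average, permuted within times. Intervals are at 95%. Counting noise assumes independent reads, which PCR copies are not.

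Members and host lists were chosen with earlier results of these data known. Named circles were the 15 with the highest mean share, those called, the 6 smallest p in each direction of each comparison, the extremes of spread among members with a mean of at least 10 reads, hosts with 3 members, the lowest means, up to 4 circles of each list, and the extremes of span and exon number. Of the names this allows, those that a result turns on are given. Lrrc58 and Ehmt1 were named after their values were seen, Lrp6, Ltbp1, Wwc2 and Fli1 complete a list or its range, and Mettl9 and Crebrf are the highest circles missing from 1 library. The labels name no animal for a library, and where libraries of a group share one, the p-values reflect technical spread only.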

Additional observations from a re-analysis of the deposited data

Results flagged for a closer look

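In groups of at least 4 libraries, 20 of the named members were examined for 1 library far from the others. Such a library was found in 4 of 105 groups, where chance gives about 1 in 20. Adgre1 exons 11 to 12 had 74.1 normalized reads in 1-week sham replicate 1, where the other 3 libraries had 19.6 to 22.5. Tns3 exons 14 to 16 had 20.1 in the same library, against 4.51 to 6.20. Ttn exons 85 to 118 had 4.36 in 4-week TAC replicate 3, against 12.7 to 14.1. Rad52 exons 10 to 11, from a homologous recombination gene, had 40.7 in 8-week sham replicate 2, against 33.7 to 34.0. The Adgre1, Tns3 and Ttn values are those of the comparisons above; that of Rad52 touches no call.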

How the results depend on the processing

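Scaling by TMM or by total junction reads, and a pseudocount of 1, left the counts of called members within 1.5 times at every time. A pseudocount of 0.1 left 0 calls at 4 weeks, and lost Tns3, Setbp1 and Bub1b at 1 week and Svep1 on average. limma-voom on recovered reads called 4 at 1 week, 4 at 4 weeks and 8 on average, beside 11, 7 and 19 of all circles. Its calls at 1 week were Ezh2, Tlk1, Ttn exons 85 to 118 and Nfix. Gigyf2, Tns3, Setbp1, Bub1b and Atxn1 exons 2 to 3 were thus not called by it at 1 week. It kept both Ttn calls at 4 weeks and all 5 calls on average. With a filter of a mean of at least 5 reads, 16 of 215 members were called at 1 week, beside 24 of the 272 circles tested. Each circle's own spread, chosen after seeing the data, gave 5, 0, 0 and 3 calls at 1, 4 and 8 weeks and on average. Over all circles it gave 11, 0, 0 and 4. Fits of week 1 or week 4 alone gave 1 and 9, beside 4 and 14 over all circles. The member called with week 1 alone was Ezh2. TMM moved the median member at 4 weeks from 0.04 to 0.15. With single libraries left out, calls ranged from 1 to 9 at 1 week, 0 to 3 at 4 weeks, 0 to 0 at 8 weeks, 2 to 6 on average and 0 to 1 for differences between times; 277 to 295 circles had reads in every remaining library. The count at 1 week was lowest without sham replicate 2, and on average without TAC replicate 1 of week 8. Requiring 2 or 5 reads in each library left 135 or 44 members. As medians over libraries, those with 2 held 35.2% of reads, and members without Nfix 46.2%. Replicate numbers of the sample titles were not taken to pair libraries. The 11 pairs with the same title number had correlations of -0.08 to 0.14 over all circles (1 over 0.1). Over members the correlations were -0.09 to 0.25 (4 over 0.1). Of 13 sham libraries, 4 correlated best with their own number. The authors' column names number the sham libraries of weeks 4 and 8 otherwise. Pairs by those names were not examined at those times, so these values cannot settle pairing there. A replicate block by title number gave 11, 2, 0 and 5 calls, beside 30, 4, 0 and 9 over all circles. For single circles, 1453 values under alternatives kept their side of the threshold, 81 lost the call, 38 gained one, and none reversed. The cause of these changes was not tested. The count-model tests planned for recovered reads were not run, and limma-voom is the test on those reads given here. Intron sequence was not used. A median of 4 to 12 reads per member limits single-time differences.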
